A study of Mus musculus with 2 samples.

Results

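CD8 T cells that lacked a set of NK receptor transcripts were picked out of the stromal vascular fraction (SVF) of gonadal white adipose tissue (gWAT), the cells other than adipocytes that collagenase and Dispase free from the fat pad. A cell was kept when it had at least 500 detected genes and at most 10% of its unique molecular identifiers (UMIs, the counted RNA molecules) from mitochondrial genes. Within those cells, the CD8 T cells were the ones with at least 1 UMI of Cd3d, Cd3e or Cd3g, at least 1 of Cd8a or Cd8b1, at most 1 of the NK receptor set Klra1, Klra7, Klrb1c, Cd160 and Xcl1, none of Cd4, Foxp3 or Cd79a, fewer than 10 of the fibroblast gene Dcn and at most 2 of the macrophage genes C1qa, C1qb and C1qc. This left 79 of the 4839 kept cells, out of 11252 barcodes.

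The samples were 2 libraries of male C57BL/6 mice aged 13 weeks, 1 for each genotype. The Adipo-Pgam1 KO library came from mice in which the adipocyte promoter Adipoq drives Cre on floxed Pgam1, which encodes phosphoglycerate mutase 1 of glycolysis. The other library came from littermate controls, called wildtype in the labels and Adipoq-Cre- Pgam1 flox/flox in the study's methods, so that by the methods both carried floxed Pgam1. How many mice went into each library is not given in the sources used here, and with 1 library per genotype no difference between them has a replicate check. Every interval below is a 95% interval that covers counting error only, no p-value is given, and genotype and library cannot be told apart.

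CD8 T cells recognise peptides on MHC class I through a T cell receptor held by CD3, with CD8 as co-receptor. Cells that have not met antigen circulate through lymph nodes under CCR7 and hold the transcription factors LEF1 and TCF1 (Tcf7). Antigen-experienced memory cells gain Eomes and T-bet (Tbx21), the chemokine receptor CXCR3, the IL-2 receptor beta chain (Il2rb) and stores of the chemokine CCL5 and of granule proteins, and some take up lectin-like receptors shared with NK cells.

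The CD8 cells numbered 58 of 3881 kept cells in the control library, 1.49% (exact binomial interval 1.14 to 1.93), and 21 of 958 in the KO library, 2.19% (1.36 to 3.33). Against the T cells around them, counting also the T cells without CD8 transcripts and those with NK receptors, they were 58 of 448, 12.9% (9.98 to 16.4), in the control library and 21 of 209, 10.0% (6.33 to 14.9), in the KO library. The intervals of both shares overlapped. The 2 comparison groups were held to the same CD3, Foxp3, Cd79a, Dcn and C1q limits, with no limit on Cd4. T cells without CD8 transcripts had at most 1 UMI of the NK receptor set, and those with NK receptors had more than 1. Before these limits 543 control and 229 KO kept cells had a CD3 UMI. The CD8 cells held 275284 UMIs in the control library and 132927 in the KO library, with a median per cell of 4531 and 6584. The libraries as a whole had 42859406 and 13821581 UMIs, and the filter kept 45.5% and 35.1% of their barcodes. Between them the libraries shared 9 barcodes, none of which was a CD8 cell.

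Pgam1, the targeted gene (mm10 chromosome 19, 41911923 to 41918660, plus strand), was close to the limit of counting in these cells, with 16 UMIs in 12 of 58 control cells and 4 UMIs in 3 of 21 KO cells. In counts per 1000000 UMIs of the summed cells (CPM, the scale of every level below unless another is named) this was 58.1 and 30.1. Between KO and control cells the log2 ratio came to -0.95, and its interval of -2.99 to 0.68 took in equal levels. CD8 cells are not known to use the Adipoq promoter, and Pgam1 here does not check the labels.

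The label holds for the T cell side and only in part for the NK side. Both CD8 chains, Cd8a and Cd8b1 (neighbours on mm10 chromosome 6, at 71373427 to 71379173 and 71322788 to 71337494), were counted together in 47 of 58 control and 16 of 21 KO cells. A constant region of the alpha or beta T cell receptor (Trac, Trbc1 or Trbc2) was counted in 56 and 20 cells, while delta and gamma constant regions were counted in 9 and 2. In B cells, which should lack Cd8b1, 1 of 151 control and 0 of 43 KO cells held a UMI of it, against 55 of 58 and 19 of 21 CD8 cells. Of the NK cell genes outside the rule, Ncr1, Klra4 and Fcer1g stood at 0 UMIs in both libraries and Tyrobp, the adaptor of activating NK receptors, at 6 and 3. Lectin-like receptors outside the rule were present all the same, with at least 1 UMI of Klrd1, Klrk1, Klrc1, Klrc2, Klre1, Klrg1, Klra3 or Klra9 in 36 of 58 and 15 of 21 cells. The name thus stands for cells with at most 1 UMI of the 5 genes of the rule and not for cells free of every NK receptor. At its threshold 52 control and 16 KO cells had 0 UMIs of the set, 6 and 5 had 1, and just outside, with 2 UMIs, lay 2 control cells and 1 KO cell.

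The markers of the label were present in both libraries at like levels. Cd8a was at 516 and 489 CPM in 50 of 58 and 18 of 21 cells, and Cd8b1 at 905 and 978. Cd3d, a CD3 chain, was at 596 and 760, Lef1 at 374 and 429 and Tcf7 at 592 and 632, and the counting intervals of all 5 ratios of KO to control held 0. Cd8a, Cd8b1 and Cd3d were used to choose the cells.

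Other cell types were represented by small counts. Summed over whole marker lists, the CD8 cells held 44 macrophage UMIs (6 genes) in the control library and 10 in the KO library, 57 and 24 of the B cell list (5 genes), 65 and 15 of fibroblasts (5 genes), 105 and 16 of endothelium (4 genes), 37 and 9 of dendritic cells (4 genes) and 3 and 0 of mesothelium (2 genes). Of their defining genes Adgre1, Pdgfra, Flt3 and Xcr1 were at 0 in both. Haemoglobin was the exception, with 4225 UMIs in the control library, of which 3776 were in 1 cell, against 109 in the KO library, and a further control cell held 126 of the 129 UMIs of the pericyte gene Rgs5. Results that rest on those cells are given with and without the 3 control cells that held at least 100 haemoglobin or 20 Rgs5 UMIs.

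The CD8 cells were divided into 2 ranges. The naive sum of a cell was its UMIs of a short set of naive genes that included Lef1, Ccr7 and Igfbp4, and the memory sum was its UMIs of Ccl5, Il2rb, Cxcr3, Nkg7 and Gzmk. The naive sum was the larger in 28 of 58 control cells and 8 of 21 KO cells, here called naive-range. The memory sum was the larger in 30 and 12, called memory-range, and 1 shallow KO cell with 1001 UMIs had equal sums. These are ranges on a score and not cell types, and the genes of the 2 sums differ between them by construction.

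Few cells lay between the ranges. In 29 control and 10 KO cells at most 25% of the split UMIs came from the naive genes, in 20 and 7 at least 75% did, and 9 and 4 cells were in between. Memory-range control cells had memory sums of 11 to 170 UMIs (median 47) beside naive sums of 0 to 10 (median 0), and 16 of the 30 had no naive UMI at all. Naive-range control cells had naive sums of 4 to 23 (median 11) and memory sums of 0 to 12 (median 2). The KO cells were laid out alike, with medians of 34 and 0 in the memory range and of 16.5 naive and 3.5 memory UMIs in the naive range.

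**Figure D1:**
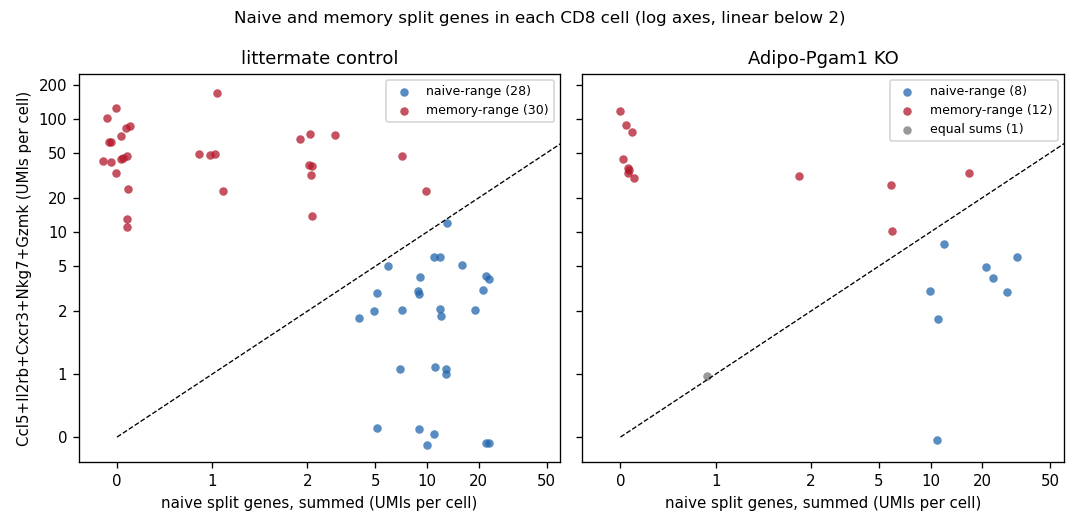
Each point is 1 CD8 cell, with the summed UMIs of the naive split genes on the horizontal axis and of the memory split genes on the vertical axis (both logarithmic, linear below 2, points shifted slightly at random so that they do not hide each other). The dashed line marks equal sums. The 30 control and 12 KO memory-range cells lie mostly along the left edge, the 28 and 8 naive-range cells at the lower right, and 1 KO cell is on the line.

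Ccl5, a chemokine of memory and cytotoxic lymphocytes (mm10 chromosome 11, 83525778 to 83530518, minus strand), supplied 1325 of the UMIs in the control memory range. It is a gene of the memory sum, as Ccr7 is of the naive and Nkg7 of the memory sum, so the shares that follow describe the division and do not test it. Every memory-range cell held Ccl5, 30 of 30 and 12 of 12, against 2 of 28 and 1 of 8 naive-range cells, and B cells, which should lack it, held it in 14 of 151 and 4 of 43. Ccr7, the lymph node homing receptor, was the reverse, in 27 of 28 and 7 of 8 naive-range cells and in 1 of 30 and 3 of 12 memory-range cells. With each cell thinned to 2000 UMIs to even out the depth, Ccl5 was in 27 of 28 control and 9 of 10 KO memory-range cells and Ccr7 in 21 of 27 and 5 of 8 naive-range cells. Nkg7, a protein of cytotoxic granules, did not part the ranges in this way: 21 of 28 and 7 of 8 naive-range cells held it (16 of 27 and 4 of 8 after thinning), at 388 and 369 CPM against 1814 and 1550 in the memory range.

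Memory-range cells made up 51.7% (exact interval 38.2 to 65.0) of the control and 57.1% (34.0 to 78.2) of the KO CD8 cells. At this number of cells no difference in the balance of the ranges was detectable.

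List genes that had no part in the split followed it. The 13 memory-list genes outside the split, given as UMIs per 10000 UMIs of a cell, ran from 7.22 to 204 (median 80.5) in control memory-range cells and from 0 to 29.9 (median 5.86) in control naive-range cells. In the KO library the same values ran from 12.4 to 196 (median 98.0) and from 1.18 to 19.3 (median 4.39). In this value 26 of the 30 control and 11 of the 12 KO memory-range cells were above every naive-range cell of their library. The 11 naive-list genes outside the split separated the cells less fully, and 17 of 28 control and 5 of 8 KO naive-range cells stood above every memory-range cell. All of these genes were measured in the cells that were split, so the values describe the ranges and do not test them.

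**Figure D2:**
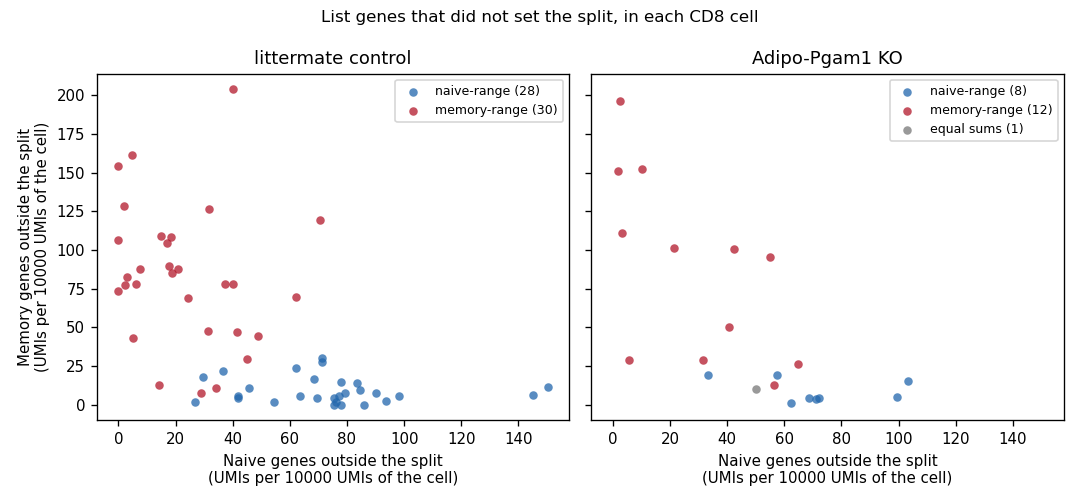
Each point is 1 CD8 cell, with UMIs of the naive-list genes outside the split per 10000 UMIs of the cell on the horizontal axis and the same for the memory-list genes on the vertical axis. Naive-range cells stay below 30 on the vertical axis in both libraries, and 26 of 30 control and 11 of 12 KO memory-range cells lie above every naive-range cell of their library.

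Across all genes with at least 20 UMIs over both ranges in each library, with the split and rule genes left out, 51 of 877 (5.82%) were past 2-fold higher in the memory range in both libraries and 15 (1.71%) past 2-fold lower. The 10 largest differences upward, ranked on the smaller of the 2 ratios, were in S100a4, S100a6, Lgals1, Lgals3, Ctla2a, Ccr2, Ahnak, Klrk1, Itgb1 and Sh2d2a. S100a6, a calcium-binding protein, was at 1993 CPM in memory-range and 123 in naive-range control cells, and at 2885 and 16.1 in the KO library, from 256, 18, 201 and 1 UMIs. Its neighbour S100a4 on chromosome 3 was at 592 and 13.6 in the control library and 890 and 16.1 in the KO library. Ccr2, a receptor for the monocyte chemoattractant CCL2, had 63 and 23 UMIs in the memory range and 0 in the naive range of both libraries, at least 4.58 and 2.78 higher on the log2 scale against a floor of 3 UMIs per group. Lgals3, a galectin, had 27 and 26 UMIs against 0 and 0, at least 3.36 and 2.95 higher. Klrk1, the activating receptor NKG2D, had 31 and 21 UMIs in the memory range against 2 and 0. Itgb1, an integrin beta chain, and Ahnak showed the same order in each library.

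The 10 largest differences downward, higher in the naive range, were in Il6st, Actn1, 5730508B09Rik, Gm10263, Cmah, Satb1, Klhl6, Peli1, Rgs10 and Dapl1. Satb1, a chromatin organiser of T cell development, had a log2 ratio of memory to naive range of -3.01 (interval -3.88 to -2.24) in the control and -1.65 (-2.46 to -0.89) in the KO library. Il6st, the shared signalling chain of the IL-6 receptor family, had -2.81 (-4.51 to -1.47) and -2.90 (-5.29 to -1.15), and Actn1, an actin crosslinker, -2.51 and -2.75. Klf2, which controls the lymph node exit receptor gene S1pr1, was at 1281 and 1381 CPM in naive-range and 514 and 402 in memory-range cells, and S1pr1 itself at 524 and 514 against 218 and 129. Ribosomal protein genes (Rpl and Rps) took 31.8% of the UMIs in the naive range and 20.6% in the memory range of the control library, and the KO ranges had the same order, with 24.3% in the memory range. Scaling by TMM in place of total UMIs shifted the log2 ratios by -0.22 (control) and -0.25 (KO), and the counts then became 31 higher and 32 lower. Relative to that shift S100a6, Ccr2, Satb1 and Il6st kept their directions.

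By list, 7 of the 13 memory genes outside the split had enough UMIs and all 7 were past 2-fold higher in the memory range, with medians of 3.03 and 3.68 on the log2 scale beside 0.11 and 0.16 over the 877 genes. Of the 11 naive genes 9 had enough and 5 were past 2-fold lower, with medians of -1.33 and -1.65. The minimum was counted over both ranges together, so a gene could reach it through the range where it is high, as Ccr2 did. These counts and medians therefore describe the division and do not test it. Of the lectin-like receptor list 2 had enough UMIs, Klrk1 and Klrd1, and Klrk1 alone was past 2-fold. Klrd1 (CD94) was the lectin-like receptor that naive-range cells also held, at 129 and 241 CPM against 304 and 316 in the memory range. None of 6 glycolysis genes, 9 T cell receptor signalling genes, 5 MHC class I genes or 5 immediate early genes passed 2-fold in both libraries.

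Eomes and Tbx21, the T-box factors of memory and effector cells, were rare in the naive range. Eomes (mm10 chromosome 9, 118478212 to 118486132, plus strand) had 46 and 9 UMIs in the memory range, in 21 of 30 and 4 of 12 cells, and 4 and 0 UMIs in the naive range. Tbx21 had 12 and 15 UMIs in 9 and 7 memory-range cells and 0 and 1 in the naive range. Gzmk, a granzyme of memory-like CD8 cells and part of the split, had 18 UMIs in 11 cells and 4 UMIs in 3 cells.

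Granzymes and perforin were low, while Nkg7 made up 290 of the 507 control and 132 of the 229 KO UMIs of the cytotoxic list. Gzma had 0 UMIs in all 79 CD8 cells, although 33 of 158 control and 13 of 68 KO T cells with NK receptors and 150 of 213 and 31 of 46 NK cells held it. A count of 0 allows up to 3 UMIs in each library's CD8 cells. Gzmb had 10 and 1 UMIs, Prf1 (perforin) 3 and 1, Gzmm 1 and 0, and Fasl 2 and 3. Ifng had 8 and 3 UMIs, in 7 and 3 memory-range cells. Exhaustion and checkpoint genes were as low, with Pdcd1 (PD-1) at 2 and 3 UMIs, Lag3 at 4 and 2, Havcr2 at 3 and 0 and Tigit at 1 and 0, and of this list Tox alone reached 10 UMIs over both libraries, with 35 and 13. The residency list held 196 and 107 UMIs, with 6 of its 8 genes at 10 or more over both libraries. Runx3 had 84 and 45 of them, Cd69, an early activation and retention marker, 54 and 24 in 26 and 12 cells, and Cxcr6, a chemokine receptor of resident cells, 16 and 15. Of its other members Zfp683 was at 0, Itga1 at 4 and 4 and Itgae (CD103) at 13 and 2, the latter with 12 and 2 of its UMIs in naive-range cells. The innate-like T list had 38 and 5 UMIs, of which Maf, a factor that other effector T cells also use, held 37 and 4. Il17a, Il23r, Cd163l1 and Blk had 0 UMIs in both libraries, and Zbtb16 had 1 and 0. Trdc, the delta chain constant region, had 7 UMIs, all in 1 control memory-range cell. Mki67, a proliferation gene, had 29 and 11 UMIs, of which 22 were in 1 control cell and 8 in 1 KO cell.

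**Figure D3:**
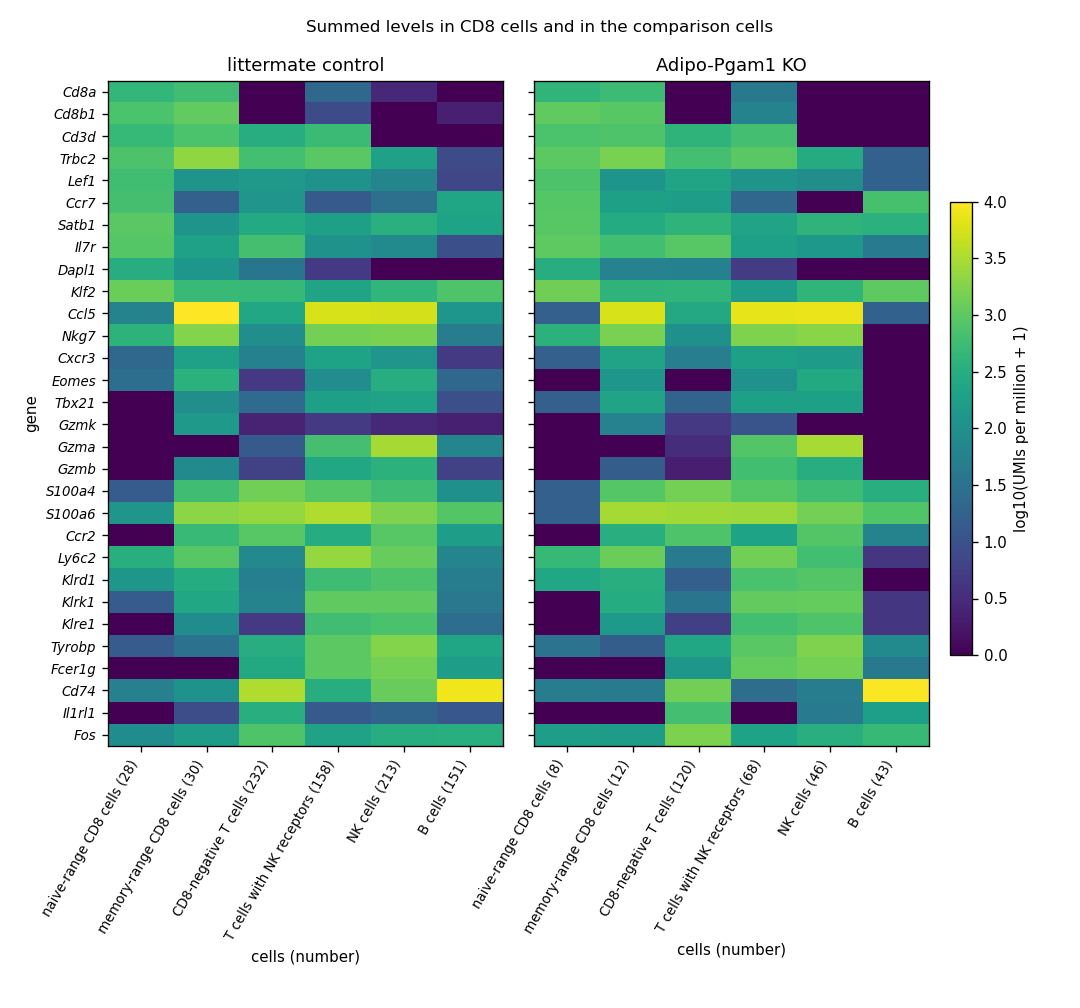
Colour gives log10 of summed CPM plus 1 for 30 genes (rows) in the 2 ranges of CD8 cells and in 4 comparison groups (columns, with the number of cells), for each library. The memory-range CD8 cells share high Ccl5 and Nkg7 with the T cells with NK receptors and the NK cells but are at 0 for Gzma and Fcer1g, and the naive-range cells are highest in Lef1, Satb1 and Dapl1 of the groups shown.

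Set against the T cells without CD8 transcripts (232 control and 120 KO cells), the CD8 cells had 73 of 6045 genes (1.21%) past 2-fold higher in both libraries and 291 (4.81%) past 2-fold lower. The cells on either side were chosen on counts of the same libraries, so this describes the choice as well as the cells. The 10 largest upward were Ccl5, Nkg7, Ly6c2, Ctsw, 5730508B09Rik, Sh2d1a, Tdrp, Klrd1, Plcxd2 and Nod1. Ccl5 was at 4846 and 3054 CPM in the CD8 cells and 250 and 258 in the others. Ly6c2, a surface protein of memory CD8 cells, was at 599 and 895 against 75.7 and 42.8, and Ctsw, a lysosomal protease of cytotoxic lymphocytes, at 149 and 150 against 23.3 and 21.4. Eomes was at 182 and 67.7 against 3.64 and 0. The memory list as a whole was not higher, with 2 of 14 tested genes past 2-fold higher (Ccl5 and Ly6c2), 3 lower (Ccr2, Cd44 and S100a4) and medians of -0.43 and -0.25 beside -0.17 and -0.15 over all 6045 genes. S100a4 was at 283 and 474 CPM against 1409 and 1483.

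Of the naive list 5 of the 14 tested genes were past 2-fold higher in the CD8 cells in both libraries and none lower, with a median log2 ratio of 1.04 in the control library and one close to 1 in the KO library, beside -0.17 and -0.15 over all 6045 genes. The minimum was counted over both groups together, so this count describes the choice of cells and does not test it. Runx3, the factor that keeps CD8 and silences CD4, was at 305 and 339 CPM against 136 and 140.

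Cd74, Il1rl1, H2-Eb1, H2-Ab1, H2-Aa, Lyz2, Tmem176b, Tmem176a, Trdc and Il2ra were the 10 genes with the largest differences downward, lower in the CD8 cells. The T cells without CD8 transcripts are a mixture, although cells with a Foxp3 UMI were left out of them. A UMI of Cd4 was in 81 of 232 and 54 of 120 of these cells, and of Trdc in 54 and 18. Il1rl1, the IL-33 receptor of group 2 innate lymphoid and regulatory T cells, was in 66 and 44. Cd74 and the other MHC class II genes are antigen presentation genes, and Lyz2 is a myeloid gene. When only the T cells with a Cd4 UMI were used for the comparison, an alternative chosen after the data were seen, the counts were 20 higher and 122 lower.

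Most immediate early genes were lower in the CD8 cells than in the T cells without CD8 transcripts. In both libraries 7 of 9 tested were past 2-fold lower, with medians of -2.19 and -1.67 on the log2 scale. Over all 6045 genes 4.81% were past 2-fold lower, with medians of -0.17 and -0.15. The minimum was counted over both groups together, and Egr1 in the KO library had 2 UMIs in the CD8 cells against 60. The count thus describes the comparison and does not test it. Fos, a subunit of the AP-1 factor, was at 124 and 166 CPM against 799 and 1598, with log2 ratios of -2.69 (interval -3.23 to -2.20) and -3.27 (-3.95 to -2.67). Dusp1, a phosphatase induced by stress, had -2.42 (-3.07 to -1.83) and -2.40 (-3.09 to -1.79). Against the T cells with NK receptors, where Fos was at 198 and 208 CPM, none of the 9 was past 2-fold in both libraries. These genes are known to respond to tissue dissociation. Its part in the difference was not tested.

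Set against the T cells with NK receptors (158 control and 68 KO cells), 54 of 4499 genes (1.2%) were past 2-fold higher in the CD8 cells in both libraries and 206 (4.58%) past 2-fold lower. Both groups were chosen on counts of these libraries, the NK receptor set among them, so this describes the choice as well as the cells. Dapl1, Ccr7, Fam169b, Cmah, Themis, Pou2f2, Gm8369, Slamf6, Fam101b and Il7r led upward. Dapl1 (mm10 chromosome 2, 59484653 to 59505020, plus strand) had 62 and 23 UMIs in the CD8 cells and 3 and 2 in the T cells with NK receptors, and its UMIs were in 20 and 5 CD8 cells. Themis, which adjusts T cell receptor signalling in thymic selection, had log2 ratios of 4.07 (3.04 to 5.28) and 2.98 (1.88 to 4.16). Il7r, the IL-7 receptor that keeps naive and memory T cells alive, was at 563 and 805 CPM against 112 and 178, while it was at 667 and 908 in the T cells without CD8 transcripts, within 2-fold of the CD8 cells.

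Of the naive list 11 of 14 tested genes were past 2-fold higher than in the T cells with NK receptors and none was lower, with medians of 1.82 and 1.80 beside -0.21 and -0.24 over all 4499 genes. Of the cytotoxic list 6 of 10 were past 2-fold lower, of the memory list 4 of 16 and of the residency list 3 of 6. All 8 lectin-like receptors outside the rule were past 2-fold lower, with medians of -2.51 and -2.62 on the log2 scale. The groups were divided on NK receptor UMIs, and a gene could reach the minimum through the T cells with NK receptors alone. Klra3 did so, with 0 UMIs in the CD8 cells of both libraries against 26 and 23, and so did Gzma, with 0 against 511 and 427. The counts and medians of the naive, cytotoxic, memory, residency and lectin-like receptor lists thus describe the division and do not test it. Klre1 was at 40.0 and 75.2 CPM against 582 and 615. The leading genes downward were Fcer1g, Tyrobp, Gzma, Fgl2, Spry2, Cd7, Cd244, Klrc2, Klra6 and Klre1, most of them NK receptors or their adaptors. Fcer1g had 0 UMIs in the CD8 cells of both libraries against 769 and 577 UMIs in the T cells with NK receptors, log2 ratios of -6.49 and -5.67 or lower against the floor of 3. Within this set Gzmk went the other way, with 18 and 4 UMIs in the CD8 cells against 3 and 5 in the more numerous T cells with NK receptors.

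In the KO library the CD8 cells had 104 of 2987 genes (3.48%) past 2-fold higher than in the control library and 242 (8.1%) past 2-fold lower, 346 (11.6%) in all. Among all 5188 genes with at least 10 UMIs the shares were 7.19% and 8.1%, and the median log2 ratio was -0.07. Of the 15 naive genes, all with at least 10 UMIs, 1 was past 2-fold higher (Ccr9) and 1 lower (Igfbp4), with a median of -0.09. Of the 16 memory genes 1 was higher (Tbx21) and 1 lower (Eomes), with a median of -0.14. Of the 7 cytotoxic genes that reached 10 UMIs, 0 were higher and 2 lower (Ccl4 and Gzmk), with a median of -0.36. The counting intervals of Ccr9 (-0.08 to 2.18) and Gzmk (-3.14 to 0.48) held 0. These shares of the naive and memory lists lay near the background, and both lists had medians close to that of all genes.

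**Figure D4:**
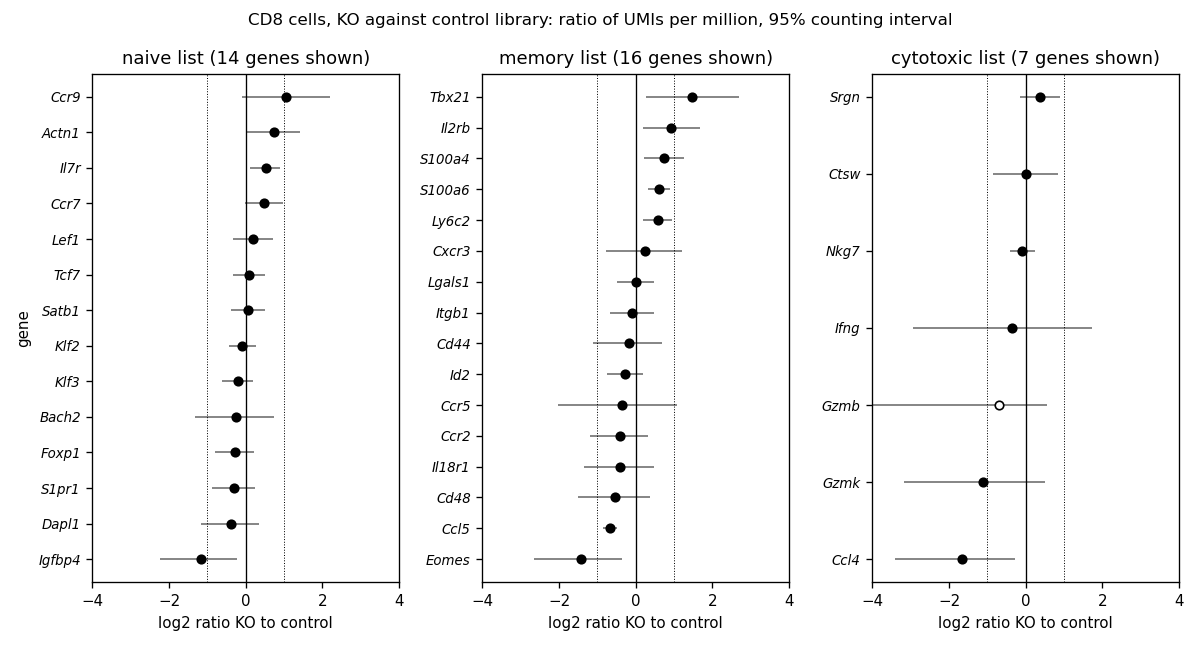
Points give the log2 ratio of CPM, KO to control, for 14 naive, 16 memory and 7 cytotoxic list genes with at least 10 UMIs in the CD8 cells, and lines give the counting interval (drawn to -4 and 4 at most). An open point has fewer than 3 UMIs in a library and is set against a floor of 3. The naive and memory genes lie around 0, with Tbx21 and Ccr9 past 1 and Igfbp4, Eomes, Ccl4 and Gzmk past -1, where the dotted lines mark 2-fold.

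The T-box factors differed in opposite directions. Eomes was at 182 CPM in 25 of 58 control cells and 67.7 in 4 of 21 KO cells, a log2 ratio of -1.42 (-2.63 to -0.39). Within the memory range its levels were 358 (control) and 129 (KO), -1.47 (-2.69 to -0.42). After thinning to 2000 UMIs, 12 of 28 control and 1 of 10 KO memory-range cells held Eomes. Tbx21 was at 43.6 and 120 CPM, a log2 ratio of 1.47 (0.29 to 2.68), from 12 and 16 UMIs. Tbx21 turned to -0.75 when only cells without any UMI of the 5 NK receptors were used, which left out 6 control and 5 KO cells.

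Ccl5 was at 10314 CPM in control and 5814 in KO memory-range cells, a log2 ratio of -0.83 (-0.99 to -0.67), although every memory-range cell of both libraries held it. Maf, a transcription factor of several effector T cells, had 37 and 4 UMIs, -2.16 (-4.11 to -0.68), all but 2 of the 37 in the memory range. Ccl4, a chemokine released by activated T cells, had 33 and 5 UMIs, -1.67 (-3.39 to -0.31). Higher in the KO library were Il2rb at 0.93 (0.21 to 1.64), S100a4 at 0.74 (0.24 to 1.24), S100a6 at 0.61 (0.34 to 0.88) and Ly6c2 at 0.58 (0.23 to 0.93), all below 2-fold. S100a4 also turned, to -0.55, without the cells that held 1 UMI of the NK receptor set.

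In the memory range alone, 12 naive-list genes reached 10 UMIs, 3 past 2-fold higher and 1 lower, with a median of 0.42 beside 0.00 over 3262 genes, of which 263 (8.06%) were past 2-fold higher and 260 (7.97%) lower. The KO memory range held 3 cells with 6, 6 and 17 UMIs of the naive split genes, and the control memory range 2 cells with 7 and 10. Il7r was at 617 CPM against 195 in the control memory range, a log2 ratio of 1.67 (0.92 to 2.44). At equal depth, with cells thinned to 2000 UMIs, Il7r was in 2 of 10 KO and 8 of 28 control memory-range cells, the opposite order, so no order is read from it. Over all CD8 cells the ratio of Il7r, 0.52, turned to -0.27 with cells thinned to 1000 UMIs and to -2.27 in the 13 control and 4 KO cells with 1000 genes or more and mitochondrial UMIs up to 5%. Ccr7 had 13 UMIs in 3 of 12 KO cells and 2 UMIs in 1 of 30 control cells, Satb1 was at 287 against 117 CPM, and Tcf7 at 660 against 374. In the naive range the same list had a median of -0.04, with Il7r at 0.19 (-0.27 to 0.64). There too the thinned cells had the opposite order, with Il7r in 3 of 8 KO and 19 of 27 control cells. The intervals treat UMIs as independent, while the 13 Ccr7 UMIs came from 3 cells.

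The glycolysis list, which holds Pgam1, summed to 370 UMIs in control and 214 in KO CD8 cells. Of 15 genes 12 reached 10 UMIs, 0 were past 2-fold higher and 1 lower, and the intervals of all 12 held 0, with a median of 0.39. Gapdh was at 0.36 (-0.16 to 0.87), Eno1 at 0.77 (-0.10 to 1.61) and Ldha at 0.43 (-0.28 to 1.13). In the memory range alone 3 of 12 T cell receptor signalling genes were past 2-fold lower, with a median of -0.44, beside 7.97% of 3262 genes. Over all CD8 cells the 12 had a median of -0.33, and none was past 2-fold. Lck, the kinase bound to CD8, was at 534 and 331 CPM, -0.69 (-1.21 to -0.20), and Ptprc (CD45) at -0.37 (-0.61 to -0.12), both with intervals below 0. Of the 7 lectin-like receptors with at least 10 UMIs none was past 2-fold in either direction, with a median of 0.40 and Klrd1 at 0.44 (-0.19 to 1.06). In the MHC class I list 0 of 6 were past 2-fold, while H2-D1 was at 0.38 (0.14 to 0.62) and B2m, the light chain of MHC class I, at -0.27 (-0.45 to -0.09). Of 9 immediate early genes 1 was higher (Jun) and 1 lower (Egr1), with a median of 0.42. The interval of Jun (-0.12 to 2.92) held 0, and Egr1 had 18 and 2 UMIs (-5.27 to -0.06). Of the 6 residency genes with at least 10 UMIs 1 was past 2-fold higher (Rgs2) and 2 were lower, Itgae among them, with a median of 0.02. The intervals of both lower genes held 0, and Itgae had 13 and 2 UMIs (-4.84 to 0.49). Beside these list counts, 7.19% of the 5188 genes with at least 10 UMIs were past 2-fold higher and 8.1% lower. Rgs2, a regulator of G protein signalling, had 5 and 14 UMIs, 2.54 (0.98 to 4.36), with 57.1% of its KO UMIs in 1 cell. Interferon genes were scarce, and 2 of 8 reached 10 UMIs, among them Bst2 at 0.64 (-0.58 to 1.81).

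Among the 2987 genes with at least 20 UMIs, the 10 largest ratios upward were Gpd2, Adcy7, Pop5, Polr2b, Treml2, Gm20186, Gm11808, Ndufv2, Rilpl2 and Cyb5a, mostly from few UMIs. Gpd2, the mitochondrial glycerol 3-phosphate dehydrogenase, had 6 UMIs in 5 control cells and 14 in 9 KO cells, 2.27 (0.80 to 3.94). It was at 37.9 and 29.8 CPM in the T cells without CD8 transcripts and at 44.5 and 44.0 in those with NK receptors. Adcy7, an adenylate cyclase, had 9 and 18 UMIs, 2.05 (0.82 to 3.39), and was at 103 and 108 CPM in the T cells without CD8 transcripts. Gm11808, a predicted gene, had 60 and 104 UMIs, 1.84 (1.37 to 2.33), and was higher in the KO library in every group counted, at 181 and 608 CPM in T cells without CD8 transcripts, 150 and 611 in T cells with NK receptors, 159 and 478 in NK cells and 168 and 480 in B cells. Reads of predicted genes and of the Klra and haemoglobin families can be split among near copies, which makes their values uncertain.

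In the same set the 10 largest ratios downward were Hba-a1, Hbb-bt, Rgs5, Hba-a2, Hbb-bs, Fabp4, Sparc, Timp3, Aspn and Mdh1, and all but Mdh1 are genes of red cells or of stromal and vascular cells. Hbb-bs was at 6742 and 497 CPM, -3.76 (-4.14 to -3.41), and without the 3 control cells named above at -0.39. Hba-a1 went from -5.26 to -1.80, Hba-a2 from -4.21 to -0.72, Hbb-bt from -4.92 to -0.58, Fabp4 from -3.29 to -1.73 and Sparc from -2.78 to -1.48 in the same way. Rgs5, Timp3 and Aspn then had fewer than 10 UMIs over both libraries. Fabp4, a lipid chaperone of adipocytes and endothelium, was lower in the KO library in all other groups too, at 1495 and 205 CPM in T cells without CD8 transcripts, 591 and 47.9 in T cells with NK receptors, 622 and 42.5 in NK cells and 693 and 36.9 in B cells. The part of free RNA and joined cells in these values was not tested. Mdh1, the cytosolic malate dehydrogenase, had 35 UMIs in 24 control cells and 3 UMIs in 3 KO cells, -2.49 (-4.84 to -0.83), and was at 121 and 100 CPM in T cells without CD8 transcripts, 168 and 170 in those with NK receptors, 147 and 184 in NK cells and 164 and 93.9 in B cells.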

How the data were processed

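Single-cell RNA-seq of gWAT SVF was made with the 10x Chromium 3' v3 kit. The authors deposited 1 matrix of UMI counts per library, and the submitters' processing notes name Cell Ranger 3.0.1, mm10, Seurat 3.1.5 and R 4.0.1. The deposited counts are raw, with no normalization, for 28692 genes. The members and the gene lists were chosen with earlier results of these data known. Cells were selected as stated in the report, UMIs were summed over cells and divided by the total of the group (CPM), and ratios were taken on the log2 scale with counts under 3 set to 3 where a bound or a rank was needed. Intervals are exact (Poisson, Clopper-Pearson binomial, or binomial conditional on the sum). Genes counted as called had at least 20 UMIs and a ratio past 2-fold, list genes at least 10 UMIs. Genes were named when they belonged to a list with at least 10 UMIs in the CD8 cells (other list members by their counts) or were among the 10 largest in a direction. Of the 28692 genes 28416 were found in GENCODE M21 (GRCm38), the source of coordinates. Doublets were kept in the main values, and 265 control and 21 KO cells were removed by Scrublet score as an alternative. The code was tested on simulated counts. TMM factors came from edgeR 4.0.16 in R 4.3.3, doublet scores from scanpy 1.11.5, and exact intervals from scipy 1.17.1 under Python 3.11.15 (pandas 2.3.3, numpy 2.4.6). With 1 library per genotype no test was run. 11 planned and 2 added alternatives were computed. Some genes, 1 of them in the naive sum, are counted in the sums and lists but are not reported here.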

Additional observations from a re-analysis of the deposited data

Results flagged for a closer look

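Outside the cell filter, 18 control and 12 KO barcodes met every count term for the CD8 cells. All of them were over the mitochondrial limit, 7 and 2 of them by less than 2 percentage points (10 to 12%), and 1 KO barcode was also under the gene limit. They enter no value of the report.

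For 7 genes the ratio of KO to control in the CD8 cells had the opposite sign from that in another group of T cells, with both counting intervals clear of 0. Each genotype is 1 library, and the difference between the groups was not tested. The genes were picked for these signs and intervals, and their number is not set against a share over all genes. Against the T cells with NK receptors these were Ccl4, at -1.67 in the CD8 cells and 0.75 in the others, Ccl5 at -0.67 and 0.34, Dusp1 at 0.92 and -0.80, and S100a6 at 0.61 and -0.39. Tcrg-C2, a gamma chain constant region, was at -1.17 with its single KO UMI set to the floor of 3 (-2.76 as counted, interval -8.16 to -0.04) and at 0.90 in the T cells with NK receptors. Against the T cells without CD8 transcripts they were Ly6c2, at 0.58 and -0.82, and Rilpl2, at 1.79 and -0.80. The Dusp1 ratio in the CD8 cells turned to -0.31 under the strictest cell filter (1000 genes or more, mitochondrial UMIs up to 5%), and so was no longer above 0. Rilpl2 rests on 9 control and 15 KO UMIs in the CD8 cells.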

How the results depend on the processing

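No paired analysis was possible because each genotype has 1 library and the labels give no replicate numbers, and leaving out a replicate was not possible for the same reason. Of 155 alternative values of the main results 36 moved and the rest stayed within the counting interval or within 1.5 times. The strictest filter (1000 genes or more, mitochondrial UMIs up to 5%) left 13 control cells, 0.707% of kept cells, and 4 KO cells, 0.93%. Memory-range cells were then 76.9% and 100%, the naive and memory list medians -0.89 and 0.61, the genes lower in KO 41, those lower against CD8-negative T cells 71, and those against T cells with NK receptors 9 higher and 34 lower. The range comparison could not be fitted there, since 0 naive-range KO cells remained. With each cell thinned to 1000 UMIs the higher and lower counts were 14 and 31 (KO against control), 8 and 37 (against CD8-negative T cells), 9 and 33 (against T cells with NK receptors) and 6 and 1 (memory against naive range). With a gene minimum of 50 UMIs they were 13 and 24, 40 higher, 25 and 96, and 17 and 3. With a minimum of 10 they were 373 and 420, 126 higher, 90 higher, and 136 and 37. TMM gave 31 and 32 between the ranges, an NK receptor sum of 0 gave 25 higher, and the T cells with a Cd4 UMI, an alternative added after seeing the data, 20 and 122. Among single genes 7 values turned: Ccr7 (-0.46), Dusp1 (-0.31) and Il7r (-2.27) under the strictest filter, Il7r (-0.27) after thinning, and Lgals3 (-1.92), S100a4 (-0.55) and Tbx21 (-0.75) with an NK receptor sum of 0. The cause was not tested. Depth limits every gene below about 20 UMIs.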
